A study of Mus musculus with 30 samples.

Results

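The proteasome genes described here are the 46 genes whose symbols join Psm, a letter from a to g and a number, and all 46 are listed in each of the deposited tables. The tables hold 14259 genes at postnatal day (PND) 1 and PND21 and 13091 at PND42, 14555 in all. The rule that picks them reads the symbol alone. They were divided by role into the alpha ring of the core particle (8 genes), its beta ring (7), the immunoproteasome subunits (3), the ATPase ring of the regulatory particle (6), its other subunits (11), activators and an inhibitor (5) and assembly factors (6). The assembly factor Psmg3 and the beta subunit Psmb11, which the same naming would include, are not analysed here. All 46 members passed the filter on low values in every comparison.

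Livers came from CD-1 mice, an outbred laboratory stock, and the libraries were made from total RNA of whole tissue. Exposed animals carried the label of cadmium chloride at 500 ppb, given during gestation according to the title of the study, and the other animals were labelled as controls with no further treatment named. There were 4 control and 4 exposed females at PND1, 3 and 3 females at PND21, 4 and 4 females at PND42, and 4 and 4 males at PND42, which makes 30 libraries. No genotype or transgene was named for any group, and the labels do not say whether animals of a group came from separate litters, so that p-values measure the spread between these samples. The study asked how this exposure before birth is followed by differences in the liver transcriptome at these ages.

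The proteasome is the main machine for degrading proteins that carry ubiquitin. Its barrel-shaped core particle is built from alpha and beta rings, and the beta subunits Psmb5, Psmb6 and Psmb7 carry the chymotrypsin-like, caspase-like and trypsin-like cutting sites. A regulatory particle sits on the core, recognises ubiquitin, removes it, and uses a ring of ATPases to unfold the substrate. Under interferon signalling Psmb8, Psmb9 and Psmb10 take the places of Psmb5, Psmb6 and Psmb7 and favour cutting to peptides for class I antigen presentation. In liver cells, as in others, the transcription factors Nfe2l1 and Nfe2l2 are known to raise proteasome gene transcription under stress.

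Upstream sequences are shown for the members on which the results below turn most and for a member that did not pass in that comparison. RefSeq windows on GRCm38.p6 were matched for 38 of the 46 members, and each full window below is the 250 bases before the annotated start, read 5′ to 3′ on the strand of the gene. Psma5 (chr3:108256676-108256925, + strand) and Psme3 (chr11:101315963-101316212, + strand) fell in exposed females at PND42, and Psmd11 (chr11:80428365-80428614, + strand) did not pass there and rose with age. Capitals mark matches, on either strand, to CCGGAAG (the ETS core), TGACNNNGC (the antioxidant response element core) or CCAAT. The Psma5 window overlaps a noncoding exon annotated on the other strand.
Psma5: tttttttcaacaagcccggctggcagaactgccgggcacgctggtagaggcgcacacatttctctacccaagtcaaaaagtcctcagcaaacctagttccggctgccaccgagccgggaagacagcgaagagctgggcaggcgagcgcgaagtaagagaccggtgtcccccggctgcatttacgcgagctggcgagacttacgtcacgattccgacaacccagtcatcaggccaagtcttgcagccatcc
Psme3: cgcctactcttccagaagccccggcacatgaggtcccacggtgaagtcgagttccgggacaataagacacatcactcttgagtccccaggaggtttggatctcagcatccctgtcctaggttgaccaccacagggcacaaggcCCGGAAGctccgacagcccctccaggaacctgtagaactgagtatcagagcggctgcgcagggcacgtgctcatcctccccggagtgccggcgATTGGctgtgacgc
Psmd11: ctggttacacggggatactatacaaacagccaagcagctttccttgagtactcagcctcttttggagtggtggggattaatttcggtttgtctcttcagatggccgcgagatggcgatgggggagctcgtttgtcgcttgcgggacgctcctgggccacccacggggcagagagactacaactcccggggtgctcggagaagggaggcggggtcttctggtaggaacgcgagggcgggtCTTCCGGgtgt
The Psma5 window holds none of these letters, the Psme3 window holds CCGGAAG and an inverted CCAAT, and the Psmd11 window holds CCGGAAG on the minus strand.

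CCGGAAG was found in the windows of 12 of the 38 members (31.6%), against 6.9% of all 32851 mouse windows and 12.2% of the windows of genes listed in the tables. Its 12 carriers were Psma6, Psmc1, Psmc2, Psmc6, Psmd2, Psmd4, Psmd6, Psmd11, Psmd12, Psme3, Psme4 and Psmg1, of which 8 fell in exposed females at PND42, and 22 of the 38 members with a window did so. Short stretches around the match (capitals) are shown for carriers that fell, Psma6 (chr12:55398677-55398715, + strand) and Psmc6 (chr14:45329708-45329746, + strand), and for carriers that did not pass, Psmd4 (chr3:95042717-95042755, - strand) and Psmg1 (chr16:95991007-95991045, - strand).
Psma6: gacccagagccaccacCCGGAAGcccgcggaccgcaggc
Psmc6: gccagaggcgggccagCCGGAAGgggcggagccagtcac
Psmd4: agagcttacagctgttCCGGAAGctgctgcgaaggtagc
Psmg1: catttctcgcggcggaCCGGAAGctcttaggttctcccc
The antioxidant core TGACNNNGC, to which Nfe2l1 and Nfe2l2 are known to bind in complex with small Maf proteins, was found in 5 of the 38 members (13.2%) and in 10.2% of all windows. Its carriers were Psmb5, Psmb6, Psmc6, Psmd9 and Psmd12, of which 2 fell in exposed females at PND42. The stretches of Psmb6 (chr11:70525332-70525356, + strand) and Psmc6 (chr14:45329581-45329621, + strand) show the match in capitals, which lies on the minus strand in Psmc6.
Psmb6: ggcggactaaagagagTGACGGAGC
Psmc6: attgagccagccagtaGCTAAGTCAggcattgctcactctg
The other patterns searched, on both strands, were the interferon-stimulated response element (3 members, 3.0% of all windows), GGAAGTG (5 members, 8.6%), GGCGGGA (7 members, 9.8%), CACGTG (4 members, 6.0%), TTCNNGAA (2 members, 7.2%), GATTGGC (3 members, 6.3%), the respiratory NRF1 site (6 members, 3.7%) and CCAAT alone (13 members, 33.8%). In the windows of genes listed in the tables these shares were, in the same order, 2.7%, 10.8%, 16.5%, 7.9%, 6.0%, 8.8%, 7.2% and 35.0%. For TGACNNNGC that share was 11.6%. TGACTCAGC, which is a form of the antioxidant core, TGACGTCA, the kappa B site and the ZNF143 site were found in 0 members. GATTGGC contains an inverted CCAAT, and GGAAGTG can overlap CCGGAAG. A match describes letters in a window and was not tested against binding or expression.

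Libraries held 22.0 to 40.1 M reads over the listed genes. The values are normalised read counts, made by the authors with a size factor per library, and PND42 libraries were scaled apart from the younger ages, so that levels are not compared between PND42 and the others. Xist and the Y-linked Ddx3y matched the labelled sex in all 16 libraries at PND42, and albumin (Alb), the defining hepatocyte transcript, was at 592400 normalised counts or more in every library. The mitochondrially encoded share of reads ran from 4.9% to 23.4% at PND1 and PND21. At PND42 it was 5.3% to 12.8% in control females, 22.2% to 35.5% in exposed females, 9.0% to 24.8% in control males and 14.5% to 29.7% in exposed males. For 4 PND42 controls (1 female, 3 male) the column headings gave the group alone, and these libraries are written as unnumbered. The heading of the female library among them shares its tag with control 1 of PND21, but the values differ. The mitochondrial share, which does not depend on the scaling, was 7.8% here and 18.3% there. The main count below is also given without that library.

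Per kilobase of annotated exon, control females at PND42 had the highest mean level for Psma6, at 2237 normalised counts per kilobase. Psmb4 (1984), Psmb6 (1881) and Psme2 (1807) followed on the same scale. The lowest was Psma8 at 22.8 per kilobase, an alpha subunit best known from the testis, and next came the assembly factor Psmd5 at 122.1. The immunoproteasome subunit Psmb9 stood at 205.6 per kilobase and Psmb8 at 523.8. Exon length here joins the exons of all annotated transcripts (3660 bases for Psmb9, 3381 for Psmb8), so the order depends on the annotation. At PND1 the order in control females began with Psmb4 (2068 per kilobase), Psmb6 (1531) and Psma6 (1380) and ended with Psmd5 (99.5), Psmb9 (62.6) and Psma8 (15.0), a pattern in which the immunoproteasome subunit Psmb9 was near the bottom.

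Exposed females at PND42 had lower levels of most proteasome genes than control females. Of the 46 members 28 fell and 0 rose at an adjusted p under 0.05 (limma on log2 values, Benjamini-Hochberg over all genes), where 40.2% of the 13091 genes tested passed, 21.4% lower and 18.9% higher. Means were lower in 43 members, against 49.9% of all genes. The median log2 difference of the members was -0.68 and that of all genes was 0.00. The groups did not overlap, with exposed libraries lower, in 31 members, against 23.5% of all genes. The summed level of the members was 88018 to 101865 normalised counts in the control libraries and 51379 to 59441 in the exposed ones. Leaving out the unnumbered control column left 26 members that fell, with a median of -0.72.

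**Figure D1:**
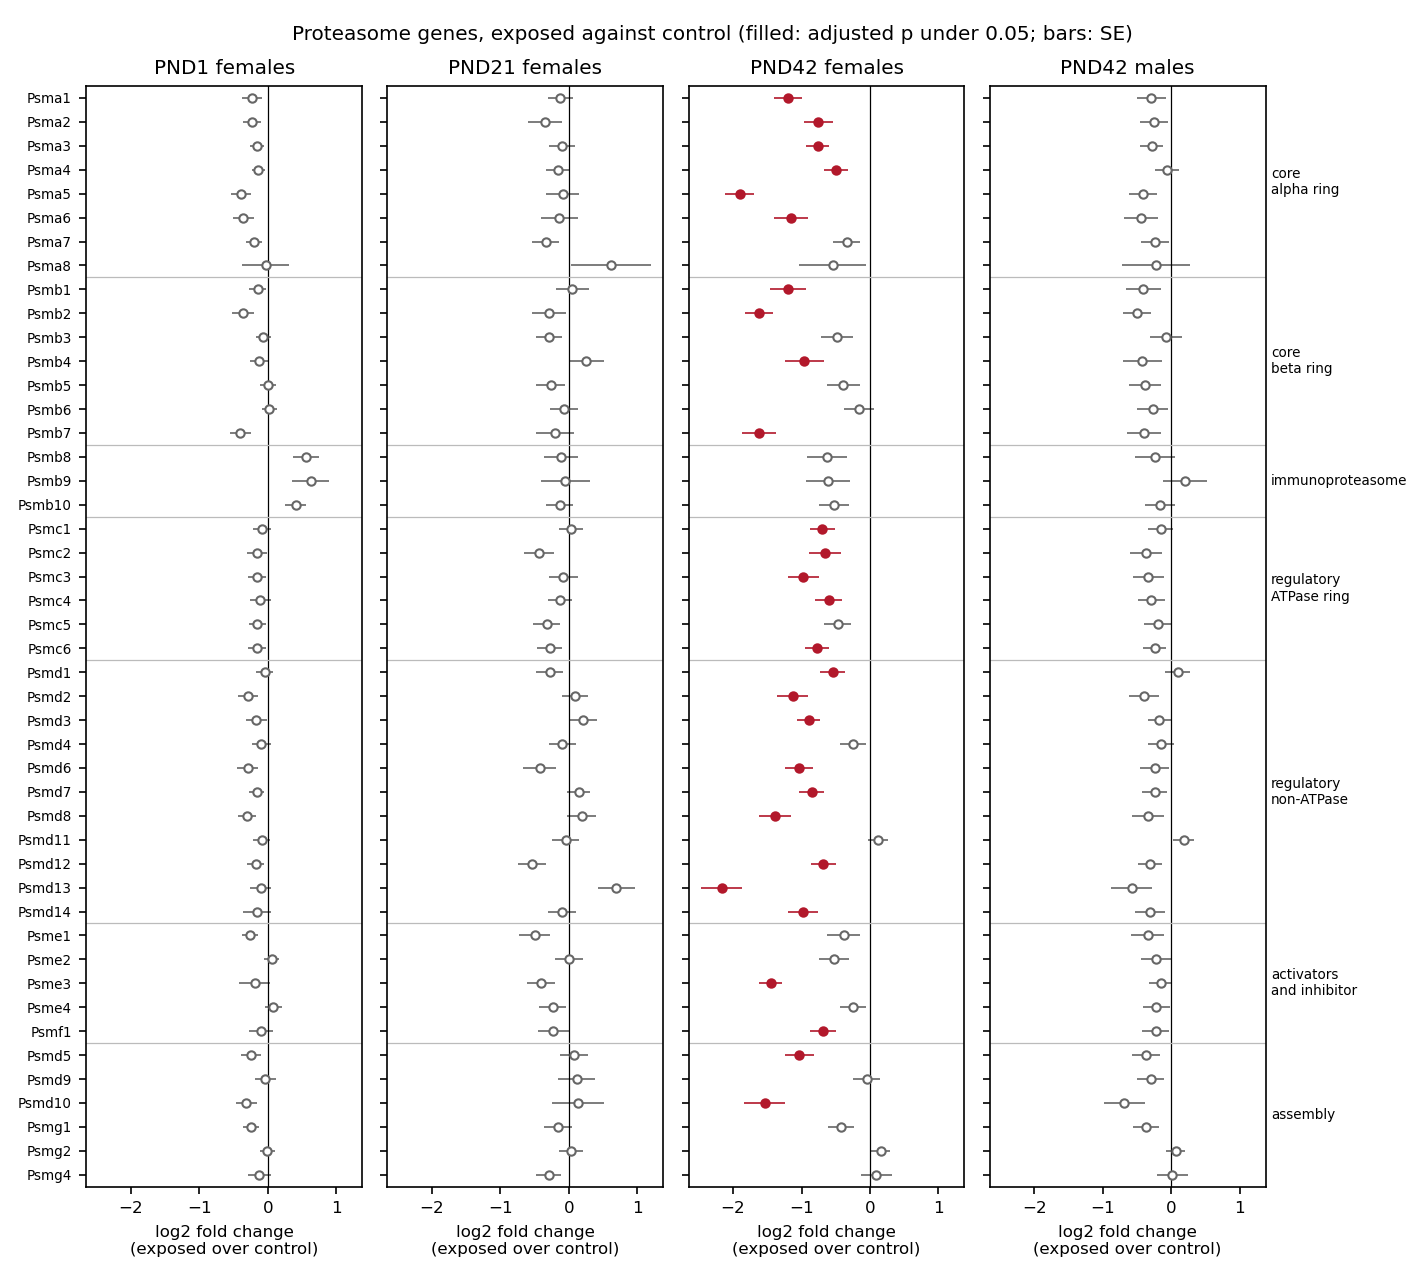
Log2 fold change of exposed over control (x axis, on the log2 scale of normalised counts plus 1) for each of the 46 proteasome genes (y axis, grouped by role) in females at PND1, PND21 and PND42 and in males at PND42. Points are estimates, bars are 1 standard error, and filled points passed an adjusted p under 0.05 in limma. Filled points are seen only in PND42 females, where 28 members lie to the left of 0.

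In the alpha ring of the core, which forms the gate through which substrates enter, 6 of 8 members fell in PND42 females. Psma5 (ENSMUSG00000068749, chr3:108256926-108279974, + strand, protein coding) had 1644, 1529, 1475 and 1568 normalised counts in control replicates 2, 3 and 4 and the unnumbered control. It had 378.2, 410.4, 443.9 and 426.3 in exposed replicates 1 to 4. Every exposed library was far below every control library, and the difference was -1.90 ± 0.21 (SE) on the log2 scale, with an adjusted p of 1.31e-05. Psma1 (-1.20), Psma6 (-1.15), Psma3 (-0.76), Psma2 (-0.75) and Psma4 (-0.50) also fell. Psma7, with a log2 difference of -0.34 (adjusted p = 0.19), and the scarce Psma8, with -0.55 (adjusted p = 0.399), did not pass.

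In the beta ring 4 of 7 members fell, and they did not include all of the cutting subunits. Psmb2 (ENSMUSG00000028837, chr4:126677630-126709714, + strand), a subunit without a cutting site, had 1705, 1274, 1594 and 1310 normalised counts in control replicates 2, 3 and 4 and the unnumbered control, and 451.9, 483.9, 440.3 and 526.3 in exposed replicates 1 to 4. The groups were well apart, with a log2 difference of -1.62 ± 0.21 (SE) and an adjusted p of 3.23e-05. Psmb1 (-1.20) and Psmb4 (-0.96) fell as well, while Psmb3 had a log2 difference of -0.48 (adjusted p = 0.107).

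Among the cutting subunits, Psmb7, which carries the trypsin-like site, had 3804, 3228, 3736 and 3325 normalised counts in the same order of controls and 1219, 1031, 1119 and 1200 in the exposed libraries. It fell by 1.62 ± 0.25 (SE) on the log2 scale, with an adjusted p of 0.00011. Psmb5, the chymotrypsin-like subunit, had 667.7, 454.3, 689.6 and 500.4 in controls and 418.8, 425.6, 482.0 and 410.5 in exposed females, so that 1 exposed library lay above the lowest control, and its log2 difference was -0.39 ± 0.24 (SE, adjusted p = 0.203). Psmb6, the caspase-like subunit, had 4225, 2591, 4210 and 3056 in controls and 3415, 2845, 2946 and 3142 in exposed females, with a log2 difference of -0.16 ± 0.22 (SE, adjusted p = 0.59) and groups that overlapped.

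**Figure D2:**
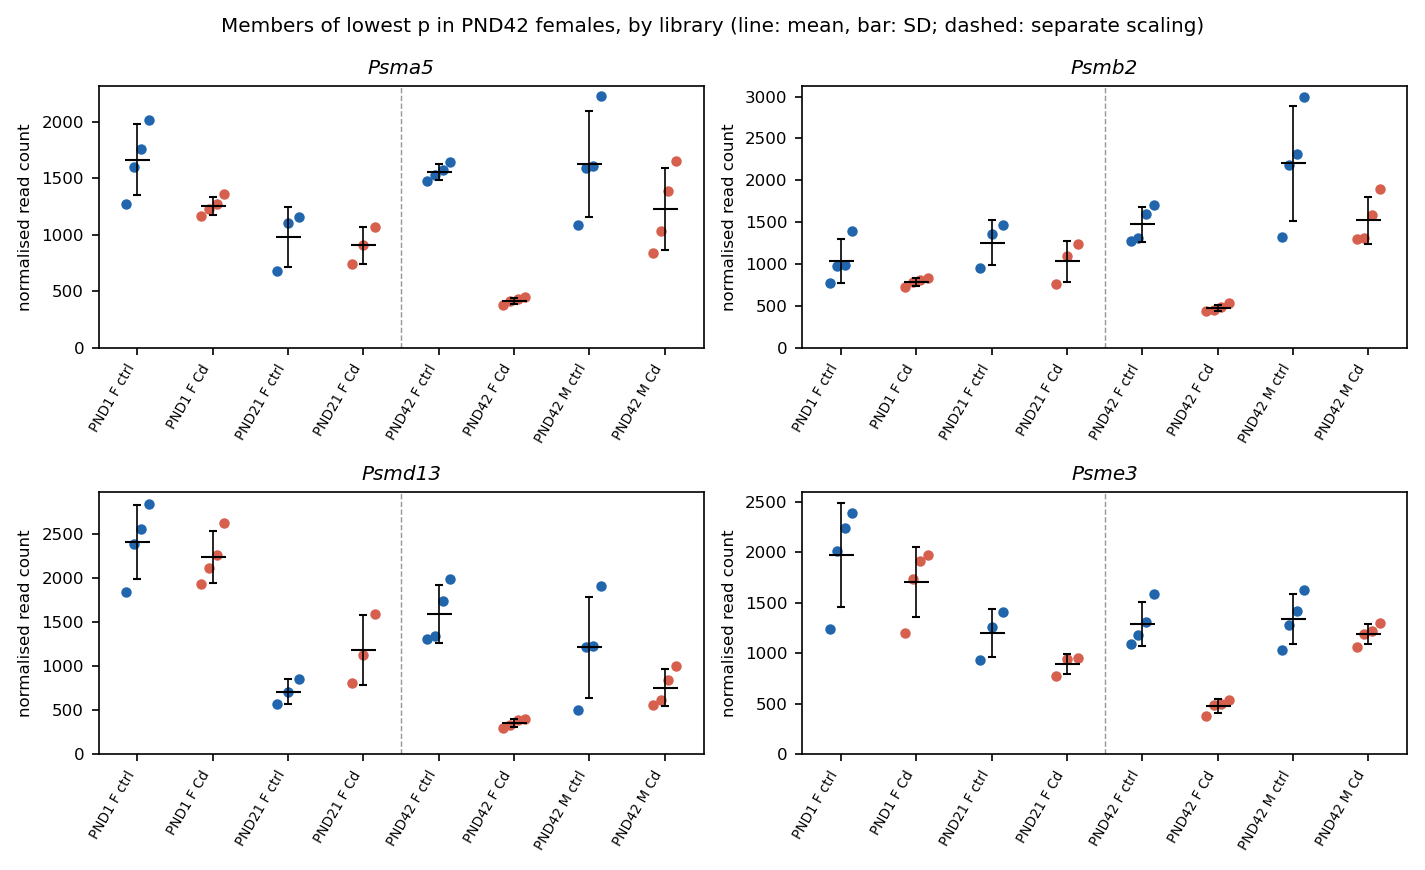
Normalised read counts (y axis, linear, from 0) of the 4 members with the lowest p in PND42 females, by library in the 8 groups (x axis; blue control, red exposed). Horizontal lines are means, bars are SD (n = 3 at PND21, otherwise n = 4), and the dashed line separates tables that were scaled apart. In all 4 panels the exposed PND42 females sit in a narrow band below the control females, as for Psma5 at 378.2 to 443.9 against 1475 to 1644.

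Of the 3 immunoproteasome subunits 0 passed in PND42 females by limma, with 2 at an unadjusted p under 0.05 (48.6% of all genes were) and all 3 means lower. Psmb8 had 2399, 1045, 2196 and 1444 normalised counts in control replicates 2, 3 and 4 and the unnumbered control, and 1332, 1204, 817.2 and 1053 in exposed replicates 1 to 4 (log2 difference -0.63 ± 0.29, SE, adjusted p = 0.0905). Psmb9 had 1050, 342.1, 1093 and 525.1 against 523.5, 534.2, 318.0 and 425.5 (-0.61 ± 0.32, SE, adjusted p = 0.137). Both control groups spread widely, with replicate 3 low for each gene, and the exposed libraries overlapped them.

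Psmb10 had 1706, 971.5, 1396 and 1060 normalised counts in those controls and 969.0, 800.8, 859.7 and 857.2 in the exposed females, which did not overlap (log2 difference -0.52 ± 0.22, SE, adjusted p = 0.0668). The ratio of Psmb10 to Psmb7, the subunit whose place it takes, was 0.301 to 0.448 in control females and 0.714 to 0.795 in exposed females. For Psmb8 over Psmb5 it was 2.30 to 3.59 in controls and 1.70 to 3.18 in exposed females, and for Psmb9 over Psmb6 it was 0.132 to 0.260 and 0.108 to 0.188. The ratios, which compare counts not divided by gene length, were not tested, and the first of these pairs is the one in which the groups do not overlap.

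**Figure D3:**
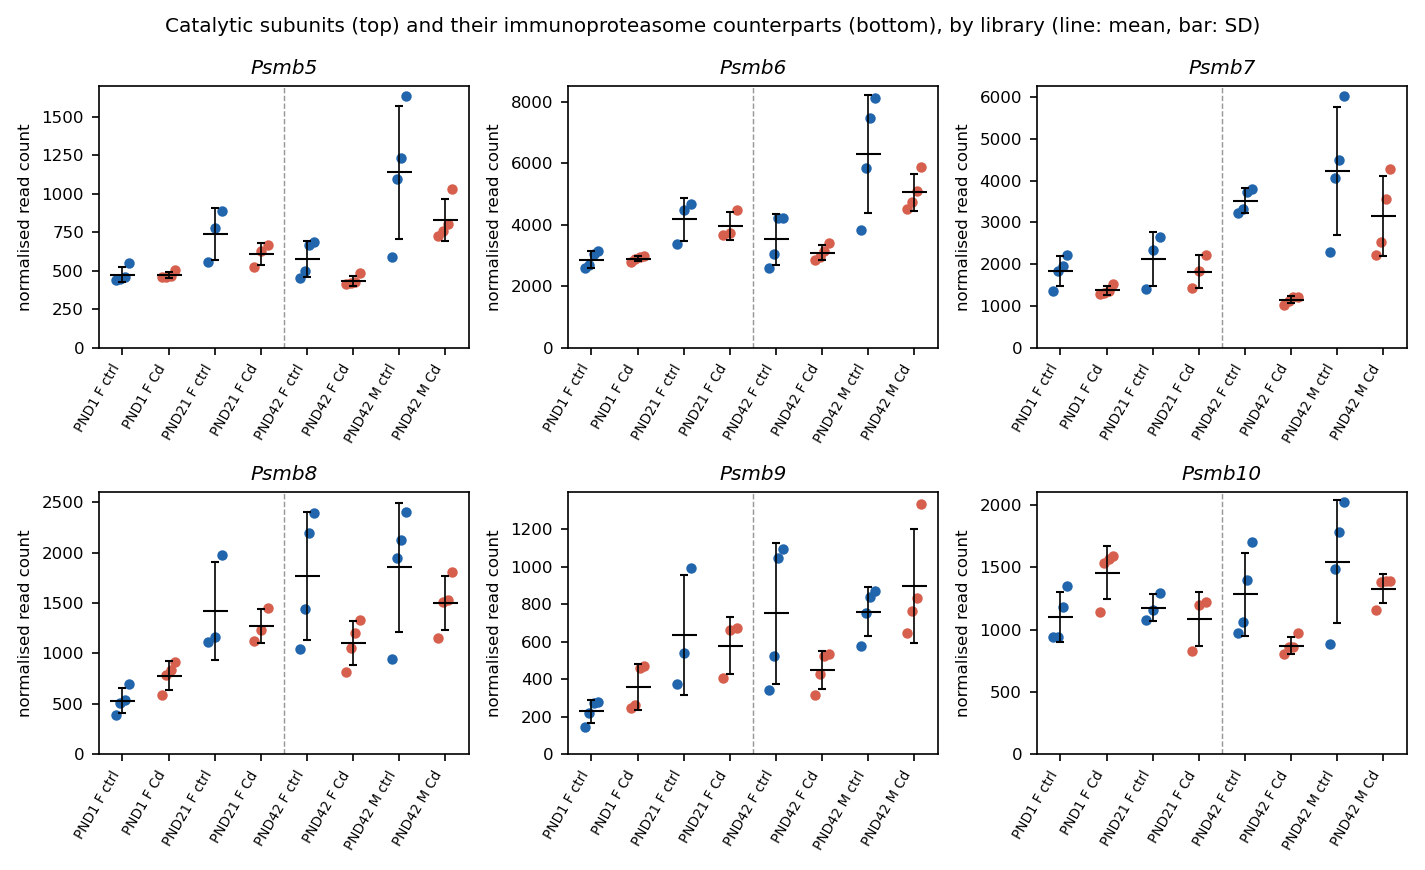
Normalised read counts (y axis, linear, from 0) of the cutting subunits Psmb5, Psmb6 and Psmb7 (top) and of Psmb8, Psmb9 and Psmb10, which take their places (bottom), by library in the 8 groups (x axis; blue control, red exposed). Lines are means and bars SD (n = 3 at PND21, otherwise n = 4), and the dashed line separates tables that were scaled apart. Psmb7 is the panel in which PND42 exposed females (1031 to 1219) lie far from the controls (3228 to 3804).

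In the regulatory particle 14 of 17 members fell in PND42 females. In the ATPase ring, which unfolds substrates, 5 of 6 fell, with Psmc3 at -0.97, Psmc6 at -0.77, Psmc1 at -0.70, Psmc2 at -0.65 and Psmc4 at -0.60 on the log2 scale. The sixth, Psmc5, had -0.47 (adjusted p = 0.0722) in groups that did not overlap. The members of this ring thus lay between -0.97 and -0.47, a narrower range than that of the alpha ring (-1.90 to -0.34).

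Among the other subunits of the regulatory particle 9 of 11 fell. Psmd13 (ENSMUSG00000025487, chr7:140881968-140898643, + strand), a lid subunit, had 1308, 1992, 1335 and 1732 normalised counts in control replicates 2, 3 and 4 and the unnumbered control, and 292.7, 332.9, 381.3 and 397.1 in exposed replicates 1 to 4. It had the lowest log2 difference of all 46 members, -2.17 ± 0.30 (SE), with an adjusted p of 6.15e-05. The lid subunit Psmd8 (-1.38), the scaffold Psmd2 (-1.13), Psmd6 (-1.04), the deubiquitinase Psmd14 (-0.97), Psmd3 (-0.90), Psmd7 (-0.85), Psmd12 (-0.68) and Psmd1 (-0.55) fell too. The ubiquitin receptor Psmd4 (-0.24, adjusted p = 0.329) and the lid subunit Psmd11 (0.12, adjusted p = 0.568) did not pass. Of the exon bases of Psmd13, 10.1% overlap the opposite-strand gene Sirt3, and 11.8% of those of Psmb7 overlap Nek6. Psmb8 (14.7%) and Psmd9 (25.5%) also share more than 10% of their exon bases with a gene on the other strand. No source used here says whether reads were counted by strand, so the values of these 4 members are uncertain. So is that of Psmb5, which shares 12.1% with Mir686 on its own strand.

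Activators dock on the ends of the core in place of the regulatory particle. Psme3 (ENSMUSG00000078652, chr11:101316213-101323537, + strand), the nuclear activator, had 1182, 1586, 1086 and 1306 normalised counts in the PND42 female controls, in the same order, and 486.1, 372.1, 496.4 and 531.1 in the exposed libraries. It fell by 1.45 ± 0.17 (SE) on the log2 scale, with an adjusted p of 1.71e-05 and no overlap of the groups. Psmf1, an inhibitor of the core, fell by 0.69 (adjusted p = 0.00964). The interferon-inducible activator pair did not pass, with Psme1 at -0.38 (adjusted p = 0.223) and Psme2 at -0.53 (adjusted p = 0.0618), nor did Psme4 (-0.25, adjusted p = 0.322).

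Assembly factors were mixed, and 2 of 6 fell, where 40.2% of all genes passed and 21.4% fell. Psmd10, a chaperone of the ATPase ring also called gankyrin, had 259.3, 309.4, 262.5 and 266.7 normalised counts in the female controls and 101.5, 85.4, 84.2 and 106.4 in the exposed females, and fell by 1.53 ± 0.30 (SE) on the log2 scale (adjusted p = 0.000776). Psmd5, another chaperone of that ring, fell by 1.03 (adjusted p = 0.00101). The chaperones of the alpha ring gave log2 differences of -0.43 for Psmg1 (adjusted p = 0.0794), 0.16 for Psmg2 (adjusted p = 0.377) and 0.09 for Psmg4 (adjusted p = 0.771), and Psmd9 gave -0.05 (adjusted p = 0.868). Psmg2, Psmg4 and Psmd11 were the 3 members with a higher mean in exposed females.

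Of 29 genes that work with the proteasome (ubiquitin genes, activating enzymes, shuttles, receptors, Vcp and its cofactors, and regulators of proteasome transcription), 12 fell and 3 rose in PND42 females, with a median of -0.31, where 21.4% of all genes fell and 18.9% rose. Those of lowest p were Adrm1, a ubiquitin receptor of the regulatory particle (-1.22), Uba1, the main ubiquitin-activating enzyme (-1.29), the shuttle factor Ubqln1 (-1.42) and the segregase Vcp (-1.38). Pomp, which helps the core mature, fell by 1.56 (adjusted p = 0.000465), Nfe2l1 fell by 0.58 (adjusted p = 0.021) and Nfe2l2 rose by 1.25 (adjusted p = 0.000644); these 3 were named after their values were seen. Of 12 genes of class I presentation and interferon signalling, 4 fell and 1 rose, a share close to the 40.2% of all genes that passed. Pdia3 (-1.39), Tap2 (-0.89) and Calr (-0.89) fell, and Nlrc5, the transactivator of class I genes, rose by 1.28 (adjusted p = 0.00342).

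Several measures of the libraries moved with exposure in PND42 females. The summed level of the nuclear RNAs Malat1 and Neat1 was 23613 to 50021 normalised counts in controls and 105107 to 126037 in exposed females, and both rose. Of 9 hepatocyte markers 7 fell, and their summed level was 3281635 to 4707975 in controls and 1510672 to 2638467 in exposed females. Leukocyte markers, of which 4 of 10 fell and 0 rose, summed to 3622 to 4774 and 1571 to 2075, with the pan-leukocyte gene Ptprc at 293.7 to 562.7 and 402.1 to 439.1. Stellate and matrix markers (2 of 6 fell) summed to 9574 to 12316 and 6173 to 8819, and sinusoidal endothelium markers (2 fell and 1 rose of 6) to 8012 to 9084 and 6938 to 7670. None of these summed levels overlapped between the groups, nor did the mitochondrial share given above. Of all genes 40.2% passed, 21.4% lower and 18.9% higher, and 23.5% were lower without overlap. The counts of the stellate and sinusoidal lists are near the share of all genes that passed. The summed levels of Kupffer cell, erythroid, cholangiocyte and cell-cycle markers did overlap. When mitochondrially encoded reads were left out of the total, the members stood at 3290 to 3809 CPM (counts scaled to a common library total) in controls and at 2730 to 3026 CPM in exposed females. The part of these measures in the differences was not tested, and in whole tissue fewer cells of a type and less RNA per cell cannot be told apart.

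**Figure D4:**
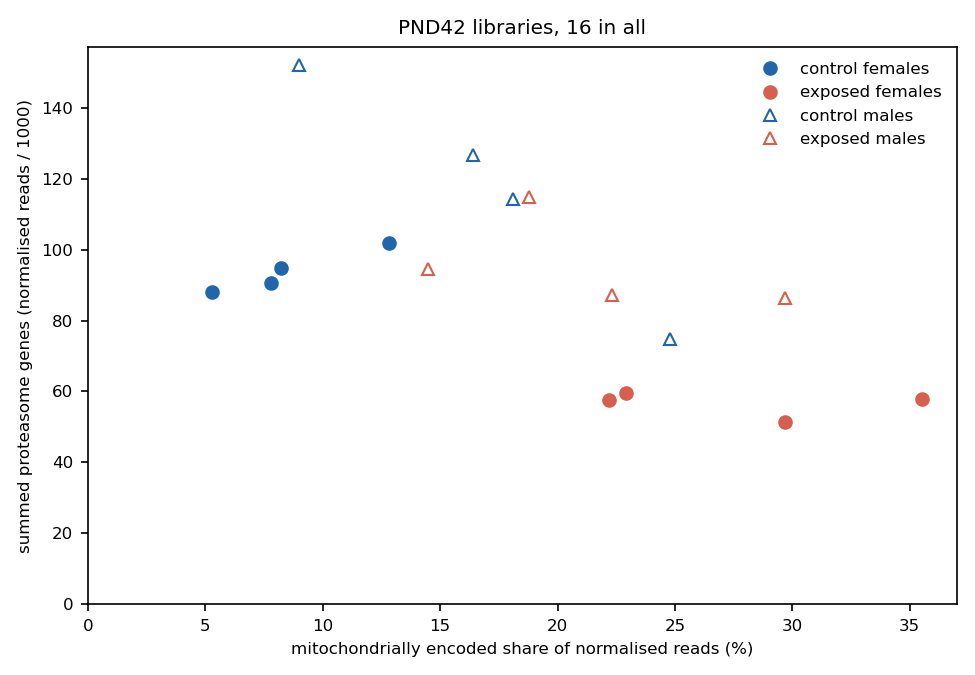
Summed level of the 46 proteasome genes (y axis, kilo-reads after normalisation, from 0) against the mitochondrially encoded share of normalised reads (x axis, percent) in each of the 16 PND42 libraries; circles are females, triangles males, blue control and red exposed. The 4 exposed females lie lowest, at a share of 22.2% to 35.5%, and among control males the library with the largest share (24.8%) has the lowest sum (74795 normalised counts).

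In males at PND42, 0 of the 46 members and 0 of 13091 genes (0.0%) passed by limma. At an unadjusted p under 0.05 there were 2 members and 932 genes (7.12%), and limma voom on the recovered reads gave 0 genes. Means were lower in exposed males for 41 members, against 52.9% of all genes, with a median log2 difference of -0.26 (all genes -0.03). The groups of exposed and control males overlapped for every member, while 0.894% of all genes were higher and 0.833% lower without overlap.

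The lowest p in males belonged to Psmb2, with 2186 normalised counts in control replicate 1, 1320, 2308 and 2998 in the unnumbered controls 1 to 3, and 1294, 1307, 1892 and 1587 in exposed replicates 1 to 4 (log2 difference -0.49 ± 0.21, SE, adjusted p = 0.622). Psmd10 had 237.9, 133.0, 227.8 and 430.1 against 130.6, 91.4, 179.0 and 215.6 (-0.68 ± 0.30, SE, adjusted p = 0.622). In each case unnumbered control 1 was the low control and unnumbered control 3 the high one. The assembly factor Psmg1 had 827.4, 691.2, 938.8 and 1161 against 511.3, 574.7, 910.7 and 828.8 (-0.37 ± 0.19, SE, adjusted p = 0.622). Psma5 had 1602, 1085, 1586 and 2222 against 1035, 837.4, 1649 and 1383 (-0.41 ± 0.21, SE, adjusted p = 0.622).

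The male median moved with those same controls. Unnumbered control 1 had the lowest summed level of the members (74795 normalised counts) and the highest mitochondrial share of the male controls (24.8%), and unnumbered control 3 had the highest summed level (152163) and the lowest share (9.0%). Without unnumbered control 1 the median was -0.46, with 27 genes and 0 members passing. Without unnumbered control 3 it was -0.13, with 0 genes passing.

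For the cutting subunits in males, Psmb5 had 1096, 586.6, 1235 and 1640 normalised counts in control replicate 1 and unnumbered controls 1 to 3, and 758.4, 804.3, 1030 and 725.3 in exposed replicates 1 to 4. Psmb6 had 5841, 3820, 7469 and 8125 against 4515, 5093, 5894 and 4740, and Psmb7 had 4074, 2292, 4503 and 6019 against 2206, 2521, 4288 and 3571. All of these groups overlapped, with log2 differences between -0.39 and -0.27. Psmb8 had 1946, 939.5, 2124 and 2408 against 1534, 1150, 1812 and 1513 (-0.24). Psmb9 had 753.8, 577.8, 836.9 and 872.8 against 832.7, 766.6, 1338 and 648.5 (0.20), and Psmb10 had 1488, 885.7, 1789 and 2027 against 1393, 1380, 1389 and 1156 (-0.16). Psmb9 was thus the immunoproteasome gene with the higher mean in exposed males, by less than the spread between libraries.

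The exposure effect differed between the sexes for 5 of the 46 members, all with the lower effect in females, where 7.91% of all genes differed 4.07% in that direction and 3.84% in the other. The difference was below 0 for 42 members (50.5% of all genes), with a median of -0.49. The difference of effects (females minus males, log2) was -1.30 ± 0.24 (SE) for Psme3 (adjusted p = 0.00594), -1.50 ± 0.29 for Psma5 (adjusted p = 0.00809), -1.13 ± 0.29 for Psmb2 (adjusted p = 0.0276), -1.59 ± 0.43 for Psmd13 (adjusted p = 0.0322) and -1.23 ± 0.35 for Psmb7 (adjusted p = 0.0397). In Psme3 the male groups were close, with 1275, 1027, 1621 and 1421 normalised counts in controls and 1184, 1218, 1296 and 1061 in exposed males. In Psmd13 they were 1230, 500.5, 1210 and 1908 against 611.7, 557.5, 837.5 and 1004. No immunoproteasome, assembly or ATPase ring member passed this test, with a smallest adjusted p of 0.276, 0.168 and 0.172. Leaving out 1 library at a time gave 2 to 11 members. It gave 2 without female exposed replicate 1, 2 or 3 or male exposed replicate 3 or 4, 3 without female control replicate 2 or 3, the unnumbered female control or male control replicate 1, and 11 without unnumbered male control 3.

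At PND1 0 of the 46 members and 0 of 14059 genes (0.0%) passed by limma. The log2 differences of the immunoproteasome subunits and of most other members lay on opposite sides of 0. At an unadjusted p under 0.05 there were 9 members and 2039 genes (14.5%), and limma voom gave 0 genes. All 3 immunoproteasome subunits had a higher mean in exposed females (49.2% of all genes did), and 39 of the 43 other members had a lower mean (50.8% of all genes did), with medians of 0.56 and -0.15. In the authors' deposited table of PND1, 42 members and 6790 genes have an adjusted p, and 0 of the 42 and 1.06% of the 6790 are under 0.05.

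Psmb8 had 695.2, 508.6, 538.1 and 384.1 normalised counts in PND1 control replicates 1 to 4 and 582.6, 917.4, 781.1 and 831.8 in exposed replicates 1 to 4 (log2 difference 0.56 ± 0.19, SE, adjusted p = 0.282). Psmb9 had 276.7, 221.7, 271.4 and 146.1 against 246.6, 459.5, 261.5 and 471.7 (0.63 ± 0.27, SE, adjusted p = 0.331). Psmb10 had 1349, 1184, 940.5 and 940.6 against 1139, 1534, 1589 and 1565 (0.40 ± 0.16, SE, adjusted p = 0.308). In each gene exposed replicate 1 was the low exposed library and lay among the controls. For Psmb9 exposed replicate 3 lay among the controls too, and control 4 was low for Psmb8 and Psmb9. Of the 12 genes of class I presentation and interferon signalling 0 passed, and among those of lowest p were Nlrc5 (1.57, adjusted p = 0.244, groups apart), Irf1 (0.37) and Pdia3 (-0.35). The summed level of 6 sinusoidal endothelium markers was 7441 to 8543 normalised counts in controls and 9162 to 10748 in exposed females, which do not overlap, with 4 of 6 means higher. Hepatocyte markers had 7 of 9 means lower, with a median of -0.28. Leukocyte markers had 3 of 9 means higher at PND1, with a median of -0.19, and all 9 erythroid markers had a higher mean, with 0 markers of these lists passing. Their part in these differences was not tested.

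At PND1 the chymotrypsin-like Psmb5 had 447.7, 459.5, 438.7 and 547.5 normalised counts in controls and 503.6, 461.3, 458.6 and 465.3 in exposed females, with a log2 difference of 0.00. Psmb6 had 3043, 2683, 2603 and 3133 against 2942, 2783, 2995 and 2874 (0.02). Psmb7 had 1948, 1349, 1840 and 2206 against 1352, 1318, 1288 and 1528 (-0.40 ± 0.15, SE, adjusted p = 0.3). The differences of Psmb5 and Psmb6 were smaller than the spread between libraries, while Psmb7 had a lower mean, although the lowest control lay among the exposed libraries. Psma5 had 1761, 1270, 1596 and 2017 against 1356, 1163, 1222 and 1268 (-0.39 ± 0.14, SE, adjusted p = 0.299).

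The ratio of Psmb10 to Psmb7 at PND1 was 0.426 to 0.878 in controls and 0.843 to 1.23 in exposed females, and that of Psmb8 to Psmb5 was 0.702 to 1.55 and 1.16 to 1.99. Members whose groups did not overlap at PND1 were Psme1 and Psma4, both lower, where 4.82% of all genes were lower without overlap. Psme1, a subunit of the interferon-inducible activator, had 2967, 2730, 2746 and 2771 in controls and 2024, 2335, 2528 and 2515 in exposed females. Its log2 difference was -0.26 (adjusted p = 0.331), and that of Psme2, its partner in the same activator, was 0.06 (adjusted p = 0.839).

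At PND21, 0 of the 46 members passed by limma, with 5 of 13886 genes passing (0.036%), 2 members and 1329 genes (9.57%) at an unadjusted p under 0.05, and 2 genes by limma voom. Means were higher in 13 members (48.9% of all genes) and lower in 33 (51.1%), with a median log2 difference of -0.12. With scaling by total reads instead, 32 means were higher and the median was 0.12, while the median of all genes moved to 0.23, so the direction of the median depends on the scaling at this age.

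The lowest p at PND21 belonged to the lid subunit Psmd12 (ENSMUSG00000020720), with 1533, 2345 and 2134 normalised counts in control replicates 1 to 3 and 1274, 1423 and 1385 in exposed replicates 1 to 3. The groups did not overlap, as was so with lower exposed libraries for Psmg4 too and for 8.62% of all genes, and the log2 difference of Psmd12 was -0.54 ± 0.20 (SE, adjusted p = 0.48). In the authors' deposited table Psmd12 has a log2 fold change of -0.56 and an adjusted p of 0.0476, and is the 1 member of 46 under 0.05 there, where 3.13% of the genes with an adjusted p are. Psmd13 had 573.3, 849.3 and 706.4 against 808.2, 1128 and 1595 (0.69 ± 0.27, SE, adjusted p = 0.485), with 1 control above the lowest exposed library. The activators Psme1 (2109, 3274 and 2884 against 1565, 2237 and 2012) and Psme3 (932.2, 1257 and 1404 against 777.7, 944.2 and 955.0) had log2 differences of -0.50 (adjusted p = 0.516) and -0.41 (adjusted p = 0.529).

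The cutting and immunoproteasome subunits overlapped between groups at PND21. Psmb5 had 554.4, 887.9 and 779.8 normalised counts in controls and 525.8, 629.1 and 665.4 in exposed females. Psmb6 had 3374, 4664 and 4483 against 3718, 3672 and 4488, and Psmb7 had 1403, 2638 and 2342 against 1419, 1826 and 2210. Control replicate 1 was the low control in all of these. Psmb8 had 1163, 1112 and 1979 against 1231, 1454 and 1123, Psmb9 had 541.2, 374.8 and 994.4 against 405.7, 671.2 and 661.8, and Psmb10 had 1155, 1078 and 1295 against 831.4, 1201 and 1221. Here control replicate 3 was the high library for each gene, and the log2 differences lay between -0.13 and -0.05. Hepatocyte markers had lower means in 9 of 9 and leukocyte markers higher means in 8 of 9 at this age, with 0 of either list passing, and their part was not tested.

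The difference in exposure effect between PND21 and PND1 was tested in 1 fit of these 4 groups, and 0 of the 46 members passed by limma, with 2 of 14259 genes passing (0.014%). At an unadjusted p under 0.05 there were 2 members and 1294 genes (9.07%), and limma voom gave 0 genes. The lowest p were those of Psmd13 (0.79 ± 0.31, SE, adjusted p = 0.47), Psmd8 (0.49, adjusted p = 0.549), Psmb10 (-0.54, adjusted p = 0.549) and Psmb8 (-0.68, adjusted p = 0.551), given as the PND21 effect minus the PND1 effect on the log2 scale. That the immunoproteasome subunits had higher means in exposed females at PND1 and not at PND21 is therefore not shown as a difference between the ages.

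Between PND1 and PND21 proteasome genes moved in both directions in control livers. Of the 46 members 11 rose and 5 fell, where 52.9% of the 14233 genes tested passed, 26.0% higher and 26.9% lower, and the median log2 difference was 0.11 (all genes 0.01). Without PND21 control 2 or 3 there were 7 and 6 that rose, and without PND1 control 2 there were 10 that fell. Those that rose were Psma4, Psmb8, Psmb3, Psmc5, Psmd11, Psmb9, Psma7, Psmd12, Psmb5, Psmb6 and Psma3, and those that fell were Psmd13, Psmd10, Psmd5, Psma5 and Psme3. The summed level was 65012 to 84822 normalised counts at PND1 and 69396 to 92926 at PND21. As CPM, with each library scaled to the same total, it was 3145 to 3721 and 2160 to 2843, which do not overlap and run the other way.

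With scaling by total reads, 3 members rose and 24 fell, with a median of -0.40 and a median of all genes of -0.50. Both settings place the members near the median gene, and directions below are relative to the deposited scaling. Psma4, Psmb8, Psmd13, Psmd10, Psmd5 and Psma5 passed in the same direction under total-read scaling, while Psmb3 (0.31, adjusted p = 0.0884) and Psmc5 (0.22, adjusted p = 0.245) did not pass.

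The immunoproteasome held the largest age differences among the members that rose. Psmb8 had 695.2, 508.6, 538.1 and 384.1 normalised counts in PND1 controls and 1163, 1112 and 1979 in PND21 controls, and rose by 1.39 ± 0.25 (SE) on the log2 scale (adjusted p = 0.000932). Psmb9 had 276.7, 221.7, 271.4 and 146.1 against 541.2, 374.8 and 994.4 and rose by 1.40 ± 0.33 (SE, adjusted p = 0.0059). Psmb10 had 1349, 1184, 940.5 and 940.6 against 1155, 1078 and 1295, overlapping, with a log2 difference of 0.11 (adjusted p = 0.62). Of the 12 genes of class I presentation and interferon signalling 7 rose and 0 fell, where 26.0% of all genes rose, among them B2m (2.36), H2-K1 (2.44), Nlrc5 (2.53) and Tap2 (1.06).

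Of the subunits they replace, Psmb5 (447.7, 459.5, 438.7 and 547.5 against 554.4, 887.9 and 779.8 normalised counts) rose by 0.62 (adjusted p = 0.0156) and Psmb6 (3043, 2683, 2603 and 3133 against 3374, 4664 and 4483) rose by 0.53 (adjusted p = 0.0201). Psmb7 had 1948, 1349, 1840 and 2206 against 1403, 2638 and 2342 and a log2 difference of 0.18 (adjusted p = 0.542). The low PND21 library of all of these was replicate 1, and it lay above every PND1 control for Psmb5 and Psmb6.

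Among the other core and ATPase members, Psma4 (ENSMUSG00000032301) had 2020, 1875, 1915 and 1857 normalised counts at PND1 and 3670, 4069 and 4292 at PND21, a rise of 1.06 ± 0.13 (SE, adjusted p = 0.000108). Psmb3 rose by 0.83 (1445, 1293, 1400 and 1547 against 2098, 2791 and 2730, adjusted p = 0.00119). The ATPase Psmc5 rose by 0.73 (1600, 1429, 1687 and 1790 against 2196, 3092 and 2885, adjusted p = 0.00361). In these 3 genes every PND21 control lay above every PND1 control, as in 11 members in all (27.4% of all genes). In 4 members every PND21 control was lower (27.9% of all genes).

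Members that fell with age included a lid subunit and assembly factors. Psmd13 had 2841, 1842, 2382 and 2555 normalised counts at PND1 and 573.3, 849.3 and 706.4 at PND21, and fell by 1.76 ± 0.19 (SE) on the log2 scale (adjusted p = 3.99e-05). Psmd10 had 393.9, 303.8, 378.5 and 350.5 against 118.2, 136.9 and 144.0 and fell by 1.41 ± 0.18 (SE, adjusted p = 0.000107). The groups of both were far apart. Psmd5 had 669.7, 582.3, 825.8 and 798.6 against 408.5, 556.9 and 421.0 and fell by 0.64 (adjusted p = 0.0124). Psma5 had 1761, 1270, 1596 and 2017 against 676.9, 1152 and 1104 and fell by 0.78 (adjusted p = 0.0131), and Psme3 fell by 0.69 (adjusted p = 0.0327) in groups that overlapped.

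Of the 29 genes that work with the proteasome 5 rose and 4 fell with age, where 52.9% of all genes passed. Among those of lowest p were Rps27a, a ubiquitin fusion gene (-1.63), the protease Ddi2 (0.74) and Pomp (0.75). Markers of other cells also moved between these ages. All 9 erythroid markers fell, with a summed level of 229972 to 377063 normalised counts at PND1 and 27711 to 86054 at PND21, all 10 cell-cycle genes fell (16213 to 31802 against 1486 to 3363), and 7 of 9 hepatocyte markers rose (1581341 to 2796373 against 2809092 to 5481245). Leukocyte markers, of which 4 of 9 fell and 0 rose, summed to 5482 to 6698 and 1379 to 2048. Their part in the age differences of the members was not tested.

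The members that fell with age and those that fell in exposed females at PND42 can be set side by side, since these comparisons share no library. All 5 that fell with age were among the 28 of the 46 members that fell in exposed females, which is 17.9% of the 28. Over all genes tested in both, 726 of the 2875 that fell with age also fell in exposed females (25.3%, and 26.1% of those that fell there). With a replicate block only Psmd10 and Psmd13 of the 5 fell with age, without 1 library the members that fell with age numbered 4 to 10, the 10 without PND1 control 2, and all of those were among the 28 too. With scaling by total reads 19 of the 24 were. Of the 11 that rose with age, 3 (Psma3, Psma4 and Psmd12) were among the 28, which is 27.3% of the 11 and 10.7% of the 28. That is a smaller share than the 28 of 46 among all members. Over all genes, 679 of the 3656 that rose with age fell in exposed females (18.6%, and 24.4% of those that fell there). Across the 46 members the log2 differences of both comparisons had a Spearman correlation of 0.55 and a Pearson correlation of 0.57. Over the 12785 genes tested in both, the Spearman correlation was 0.10. These are correlations across genes, which are not independent replicates and share libraries within each comparison.

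**Figure D5:**
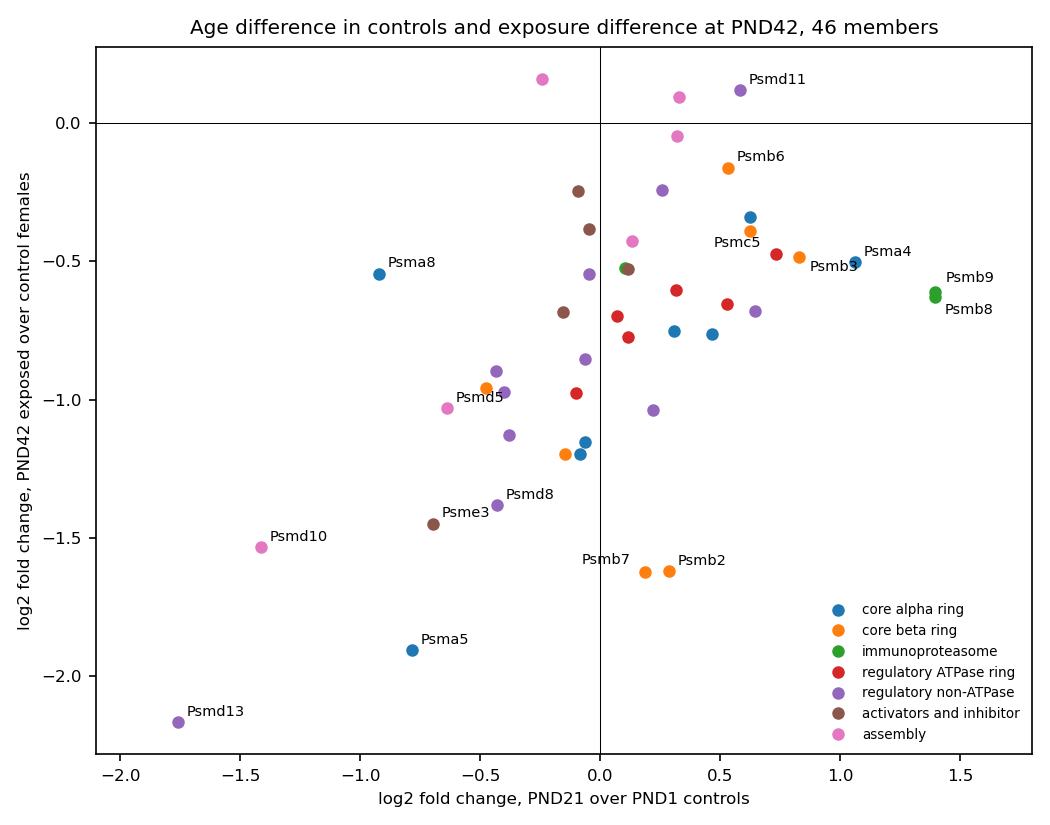
Log2 difference of PND21 over PND1 control females (x axis) and of exposed over control females at PND42 (y axis) for the 46 members, coloured by role, with 16 members named. The lower left holds Psmd13 (-1.76 and -2.17), Psmd10 (-1.41 and -1.53) and Psma5 (-0.78 and -1.90), and the immunoproteasome subunits Psmb8 and Psmb9 lie at the right (1.39 and 1.40 with age).

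The log2 differences of exposed females at PND42 had a Spearman correlation with those of exposed females at PND1 of 0.64 across the 46 members, and over all 12629 genes tested in both it was 0.61. Males at PND42 and females at PND1 gave 0.58 over the members and 0.40 over all genes. Exon length, intron length and GC content had Spearman correlations with the PND42 female differences of -0.07, -0.14 and 0.22 over the members, against 0.28, 0.34 and -0.03 over all genes. The level in control females per kilobase of exon had -0.12 over the members and -0.42 over all genes. The same control libraries enter this level and, with opposite sign, the difference, so noise in them lowers both of these correlations.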

How the data were processed

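Total RNA of 30 livers was sequenced as single reads over 2 lanes, per the labels. Reads were checked, aligned and counted by the authors with FastQC, STAR and featureCounts on mm10, per the submitters' processing notes. The deposited values are log2 of the reads of a gene divided by a size factor of the library, plus 1, by the authors. A mean signal per gene, deposited beside them, equals the mean of the scaled reads over the libraries of a scaling. For the younger ages the authors' own fold changes come with p-values and adjusted p-values as deposited, from a test that is not stated. Dividing each library by the value of 1 read gave whole reads in 100.0% of values, within 0.1 of a read. PND1 and PND21 were scaled together and PND42 alone, which was checked on the tables.

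Differences were tested with limma 3.58.1 in R 4.3.3 on the deposited log2 values (trend, robust, two-sided), for genes with at least 10 normalised counts in as many libraries as the smaller group holds, with Benjamini-Hochberg adjustment over all genes tested. PND42 was 1 fit of 4 groups, with the sex difference as an interaction. Other scalings, pseudocounts, filters and fits, limma voom on the recovered reads, and leaving out each library were tried. The same steps were tested on simulated reads. Values in every library are given for Psmb5 to Psmb10 and, in each comparison, for up to 4 passing members of lowest p in each direction, or the 4 of lowest p; other members may be named, and from each list of related genes up to 4 of lowest p, of which some are not reported here. The members, lists and motifs were chosen with earlier results of these data known. Gene positions are from GENCODE vM21, and sequences are from RefSeq on GRCm38.p6. Windows of Psma8, Psmb1, Psmb2, Psmb7, Psmc3, Psmd3, Psmd7 and Psmg2 were not used here.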

Additional observations from a re-analysis of the deposited data

Results flagged for a closer look

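In 3 of 54 groups checked, 1 library lay apart from the others of its group, and chance alone gives about 1 in 20. For Psmb10 exposed replicate 1 at PND1 had 1139 normalised counts against 1534 to 1589 in the other exposed females, and for Psmb5 the same library had 503.6 against 458.6 to 465.3. For Psmb10 exposed male replicate 4 at PND42 had 1156 against 1380 to 1393. The test of the difference between the sexes at PND42 passed for Psme3 (females minus males -1.30 on the log2 scale), Psma5 (-1.50), Psmb2 (-1.13), Psmd13 (-1.59) and Psmb7 (-1.23). In control and exposed males the values of these 5 genes overlapped. Unnumbered male controls 1 and 3, which were the lowest and highest controls in summed level, enter each of these differences.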

How the results depend on the processing

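Of the alternatives to the main counts and medians, 316 kept their direction and call, 16 moved and 2 reversed. Those for single genes and whole-table counts gave 604, 27 and 0, with 19 that lost their call. With scaling by total reads the PND21 exposure median became 0.12, and the age median became -0.40 with 3 members higher and 24 lower. Leaving out 1 library gave 2 to 11 members for the sex difference, and 6 to 13 higher and 4 to 10 lower for age. Psmb2 lost its sex difference in 6 of these and Psmd13 in 8. In exposed females at PND42, 24 to 30 members fell, the 24 without exposed replicate 2. The cause of these shifts was not tested.

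Deviations of same-numbered libraries from their group means had low correlations (-0.078 to 0.235), and those between libraries of other numbers reached 0.253. Few numbers were shared in each comparison, so this does not settle whether the numbers pair the samples. A replicate block left 0 members at PND1 and PND21, and 9 higher and 2 lower with age, where Psma5, Psmd5 and Psme3 no longer fell. In PND42 females 31 were lower with a block. That fit held the numbered female libraries alone, without the males and the unnumbered control, so it differs from the main fit by more than the block. For males at PND42 and the sex difference alone, a block could not be fitted, since the male groups share fewer than 2 replicate numbers. Groups of 3 or 4 libraries and unnumbered columns limit the precision.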
